A study of Zea mays with 16 samples.

Results

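Guard cells and subsidiary cells of maize were compared in the dark, 2 h after the lights went off. The comparison holds 8 of the 16 libraries of the series, chosen by the labels alone: 4 libraries of guard cells and 4 of subsidiary cells taken by night. The night subsidiary samples carry a day-like word in their titles, and their treatment label and library names put them in the night. All plants were of the inbred line B104, seedlings 2 weeks old grown under 16 h of light at 25 °C and 8 h of dark at 22 °C, and the strips of epidermis came from leaf number 3. Guard and subsidiary cells were cut out with a laser and catapulted into adhesive caps; each sample joined 2 tubes of roughly 1500 cells, and the collection was repeated 4 times. No group carried a transgene or a treatment other than the time of day. The 8 day libraries, taken 2 h after the lights came on, enter here to estimate the spread of each gene and for the day values set beside the night values.

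Guard cells are the pair of cells that border the stomatal pore, and they open it by taking up potassium, anions and water until they swell. In grasses each guard cell is flanked by a subsidiary cell, which gives up ions and water as the pore opens and takes them back as it closes. In the dark grass stomata are mostly closed and proton pumping at the plasma membrane is low. The leaf as a whole then draws on starch and sugar pools without photosynthesis. The series title names aquaporins, the water channels of this exchange, as its subject.

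Night libraries held 17.6 to 28.9 M recovered reads over 36346 to 37363 detected genes. Guard libraries averaged 19.4 ± 2.43 M (SD, n = 4) and subsidiary libraries 24.0 ± 3.24 M (2-sided exact permutation p = 0.0857, adjusted p = 0.305). Likeness within the group, the mean Spearman rho across genes with the other 3 libraries, was 0.650, 0.713, 0.742 and 0.750 in guard libraries in rising order, against 0.803 to 0.818 for subsidiary libraries (exact permutation p = 0.0286, the smallest that 4 against 4 can give, adjusted p = 0.305 over 16 measures). The lowest was guard night replicate 4. The median SD of a gene was 0.975 on the log2 scale in guard cells by night, or 0.768 without that replicate, and 0.760 in subsidiary cells. The file gives gene descriptions as a first word, for 7467 (19.8%) of the 37759 genes tested, and that word stands beside each identifier here. None of these words names a regulator of the stomatal lineage, so the identity of the cut cells was not checked by such markers.

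By night 11 genes differed between the cell types, 7 higher and 4 lower in guard cells, which is 0.0291% of the genes tested (0.0185% and 0.0106% by direction; limma-trend on log2(normalised count + 1), adjusted p under 0.05). Of these, 2 have a description: Carboxypeptidase Zm00001d047235, higher in guard cells, and PRA1 Zm00001d015125, lower. The median standard error of a night difference was 0.73 on the log2 scale. At an unadjusted p under 0.05 stood 3237 genes (8.57%). The 4 guard libraries lay wholly above or below the 4 subsidiary libraries for 2192 genes (5.81%), 956 above (2.53%) and 1236 below (3.27%). The rest of the account gives values for such genes and for the list members of smallest p, some with overlapping groups, and speaks of a difference as found only where the adjusted p passed. In such bulk samples more RNA of a gene per cell and more cells that express it cannot be told apart.

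Serine carboxypeptidases and related enzymes cleave the ends of proteins or transfer acyl groups in the vacuole and the wall. Carboxypeptidase Zm00001d047235 held 909, 1253, 1203 and 315 normalised counts in guard replicates 1 to 4. In subsidiary cells it held 87.9, 58.9, 72.4 and 209. The lowest guard library thus stood above the highest subsidiary library, and the means were 920 ± 431 and 107 ± 69.1 (SD, n = 4). The log2 difference was 3.09 ± 0.53 (SE, limma adjusted p = 0.0429). The call held without guard night replicate 4, subsidiary day replicate 1 or 4, or subsidiary night replicate 4, and was lost without any other library (highest adjusted p = 0.172).

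PRA1 proteins sit in the membranes of the secretory pathway and bind Rab GTPases that direct vesicles. PRA1 Zm00001d015125 held 348, 791, 299 and 155 normalised counts in guard cells and 2268, 2103, 1468 and 3349 in subsidiary cells. Every subsidiary library was above every guard library, with means of 2297 ± 782 and 398 ± 274 (SD, n = 4), a ratio of 5.77. The log2 difference was -2.71 ± 0.44 (SE, limma adjusted p = 0.0429). That call held without guard night replicate 2 or 4 or subsidiary day replicate 1 or 4, and was lost without any other library (highest adjusted p = 0.152). By day the gene was also lower in guard cells, by -1.87 (limma adjusted p = 0.0414). Among the 61 genes of vesicle traffic it was the 1 called. The list's median was -0.27, with 21 members positive and 40 negative, beside a median of 0.00 over all genes.

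**Figure D1:**
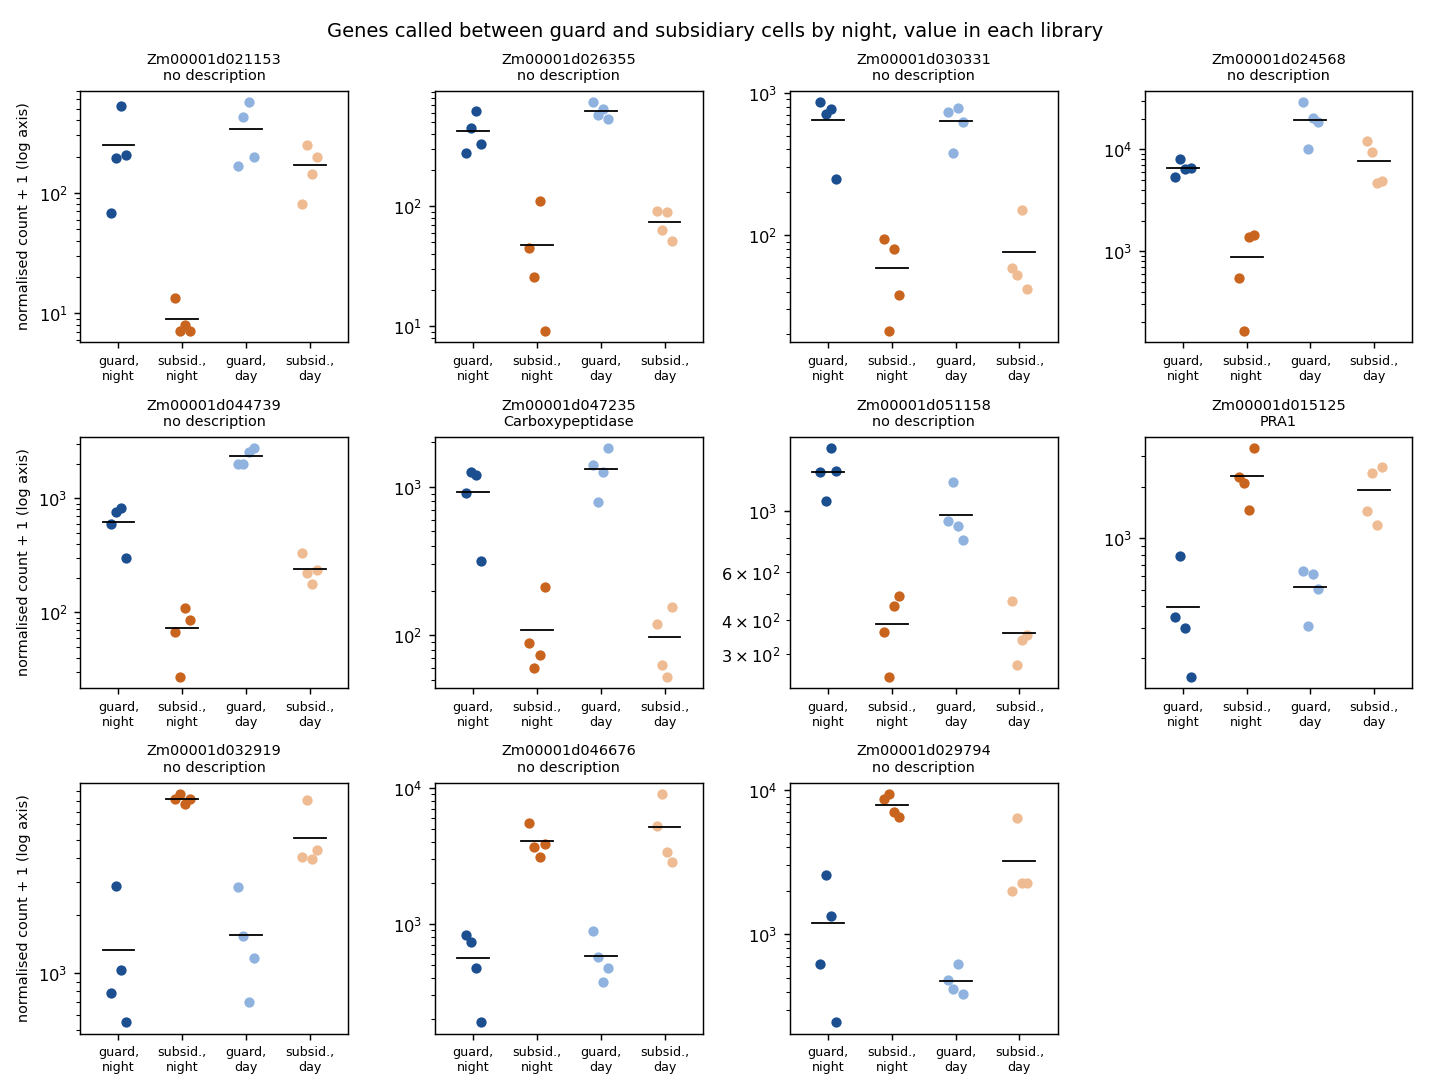
Normalised count + 1 (log axis) of the 11 genes called by night, in every library of the 4 groups; points are libraries, horizontal bars are group means. By night the guard and subsidiary points do not overlap in any panel, and Zm00001d021153 and Zm00001d024568 stand closer together by day than by night.

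The other 6 genes higher in guard cells have no description, and their function is not given here. Zm00001d044739 was the gene of smallest p. Its guard libraries held 595, 762, 820 and 299 normalised counts and its subsidiary libraries 66.1, 26.4, 108 and 84.1. This gap was 3.17 ± 0.44 on the log2 scale (SE, limma adjusted p = 0.0309), and 20 of 27 other settings called it. It had the same size by day, 3.30 (adjusted p = 0.00111). Guard libraries by day held 1991 to 2753 normalised counts and subsidiary libraries 175 to 328, each above every night library of the same cell type.

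Zm00001d021153 was low in subsidiary cells by night, at 12.4, 6.15, 6.97 and 6.16 normalised counts, where guard cells held 67.1, 195, 522 and 207. The groups stood well apart, with a ratio of means of 31.2 and a log2 difference of 4.50 ± 0.67 (SE, limma adjusted p = 0.0322). In the subsidiary libraries by day it stood at 80.4, 249, 143 and 197, within reach of the day guard libraries at 166 to 563. The day difference was 0.94 (adjusted p = 0.632), and the change between the day and the night difference was -3.56 ± 0.94 (SE, limma adjusted p = 0.40), which did not pass.

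Zm00001d024568 was the most even of these within guard cells by night, at 5336, 8132, 6444 and 6511 normalised counts, while subsidiary cells held 545, 164, 1367 and 1431. The log2 difference was 3.33 ± 0.55 (SE, limma adjusted p = 0.0429). By day guard libraries ran from 10023 to 29018 and subsidiary libraries from 4709 to 12015, which overlap, and the difference was 1.36 (adjusted p = 0.299). Zm00001d026355 held 278 to 625 normalised counts in guard cells and 8.21 to 109 in subsidiary cells (3.62). For Zm00001d030331 the ranges were 245 to 857 and 20.2 to 93.3 (3.55), and for Zm00001d051158 they were 1090 to 1701 and 248 to 491 (1.88). These 3 genes were higher in guard cells by day as well, by 3.10, 3.20 and 1.43 (limma adjusted p 0.0083 to 0.029).

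The 3 undescribed genes lower in guard cells were abundant in subsidiary cells by night. Zm00001d032919 was nearly constant there, at 8203, 8668, 7648 and 8149 normalised counts, and scattered in guard cells, at 785, 2868, 1035 and 549. No library crossed between the groups, and the log2 difference was -2.94 (limma adjusted p = 0.0429). Zm00001d029794 held 6474 to 9409 in subsidiary cells and 244 to 2583 in guard cells (-3.20). Zm00001d046676 held 3098 to 5571 and 188 to 836 (-3.03 ± 0.46 SE, adjusted p = 0.0322). Guard night replicate 4 was the lowest guard library for all 4 genes lower in guard cells and for 3 of the 7 higher ones, against 27.5% over all genes tested. Without it each of the 11 genes was still called, and the 4 lower ones had differences of -2.34 (PRA1 Zm00001d015125) to -2.62 (Zm00001d032919).

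How many genes pass depended strongly on the libraries in the fit. Leaving out guard night replicate 4 gave 114 genes, 100 of them higher in guard cells, and leaving out guard night replicate 2 gave 65, of which 58 were lower. No gene passed with replicate 2 or 4 of the guard day group left out, nor with replicate 3 of guard cells by night, nor with replicate 1 or 2 of subsidiary cells by night. Among the genes called without guard night replicate 4 were 2 carboxypeptidases, Bidirectional Zm00001d038226, Potassium Zm00001d003861, MYB Zm00001d053124 and the photoperiod gene C2C2-CO-like Zm00001d051684. With the 8 night libraries alone 4 genes passed, and 0 of these were among the 11. They were CASP-like Zm00001d015463 (-3.91), Zm00001d051859 (-5.51) and Zm00001d001849 (-3.01), lower in guard cells, and Zm00001d047625 (3.88), higher, with limma adjusted p of 0.0352 to 0.0405 in that fit and 0.059 to 0.162 over all 16 libraries.

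**Figure D2:**
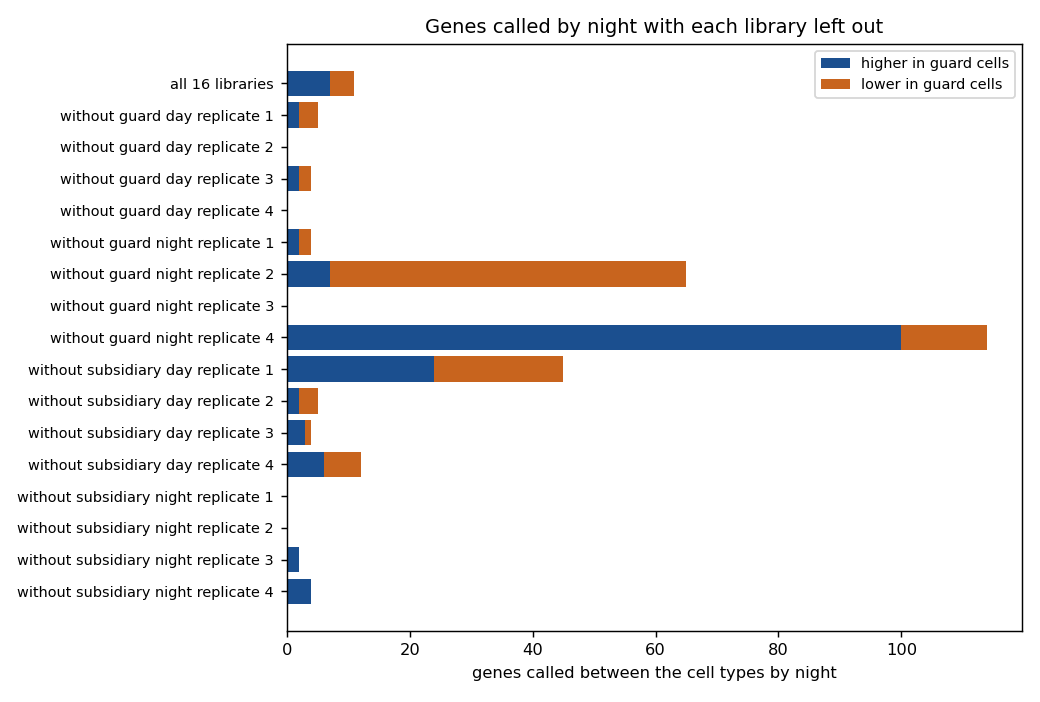
Number of genes called between guard and subsidiary cells by night with all 16 libraries and with each library left out in turn, split by direction. The count runs from 0 to 114, and the 2 largest counts come without guard night replicate 4 (mostly higher in guard cells) and without guard night replicate 2 (mostly lower).

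Both sets of called genes kept their direction by day. All 7 genes higher and all 4 lower in guard cells by night had the same sign by day, and 5 and 3 of them were called by day too. By day 505 genes (1.34%) were called. Of the 356 on the guard side 81 had non-overlapping groups by night, and of the 149 on the subsidiary side 58 did. Over all genes tested 2.53% lay above and 3.27% below by night. The median difference of those day genes was 3.06 by day and 1.00 by night for the higher ones, and -2.34 and -1.04 for the lower ones; day-called genes were selected by their day values, so a smaller night value is no test. Of the 2192 genes apart by night 324 were apart the same way by day and 24 the opposite way. The share of all genes apart by day is not given here. The test of the change itself, the day difference minus the night difference, called 0 genes in limma (0% of those tested, 2533 or 6.71% at an unadjusted p under 0.05) and 0 in edgeR, and 201 in DESeq2 on recovered reads. The lowest adjusted p in limma was 0.0659, which Zm00001d038907, without a description, shares with other genes; its difference was 4.14 by day and -1.22 by night.

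**Figure D3:**
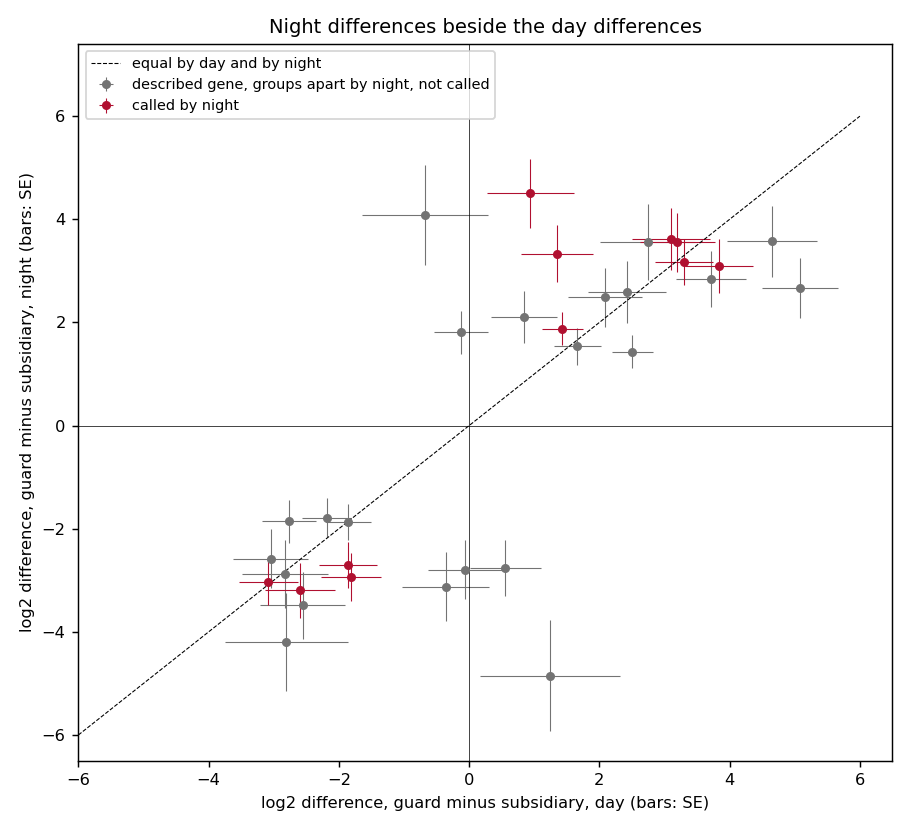
Log2 difference between guard and subsidiary cells by night against the difference by day, for the 11 called genes (red) and the described genes of smallest p whose night groups do not overlap (grey); bars are standard errors and the dashed line marks equality. Several points lie away from the line, among them Aquaporin Zm00001d005421 (-2.75 by night, 0.55 by day), TCP Zm00001d017350 (4.08 and -0.68), MFP1 Zm00001d048123 (-4.85 and 1.24), AT-rich Zm00001d053396 (-2.79 and -0.07), Expp1 Zm00001d013113 (-3.12 and -0.36), Cell Zm00001d013120 (1.81 and -0.13) and the called Zm00001d021153 (4.50 and 0.94). All plotted genes were picked on their night values, so a smaller day value is no test. None of them passed the limma test of the change between the day and the night difference.

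Potassium is the main cation that moves between subsidiary and guard cells. Of 31 potassium transport genes 0 passed by night, and 4 (12.9%, beside 5.81% over all genes) had non-overlapping groups, 1 higher and 3 lower in guard cells. Potassium Zm00001d003861 held 3896, 6994, 7920 and 1102 normalised counts in guard cells and 1075, 619, 581 and 234 in subsidiary cells. The groups meet closely, since guard replicate 4 stood just above subsidiary replicate 1, and the log2 difference was 2.84 ± 0.54 (SE, limma adjusted p = 0.0617). Without guard night replicate 4 it was 3.45 (adjusted p = 0.00177). Potassium Zm00001d044717 was even within guard cells, at 711, 836, 929 and 712, and held 3184, 2785, 3829 and 2014 in subsidiary cells (-1.86, adjusted p = 0.103). Potassium Zm00001d046679 held 168 to 532 and 650 to 1696 (-1.73, adjusted p = 0.124). The list as a whole took like shares of the reads, 0.117 to 0.133% in guard and 0.105 to 0.128% in subsidiary libraries.

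Aquaporins let water cross membranes, and 0 of 23 passed by night. Their median difference was -0.40, with 5 positive and 18 negative, and the value without guard night replicate 4 was -0.41. By day the median was -0.34. Aquaporin Zm00001d005421 held 251, 69.0, 27.2 and 66.1 normalised counts in guard cells by night and 521, 367, 675 and 531 in subsidiary cells. The groups did not overlap, and the log2 difference was -2.75 ± 0.54 (SE, limma adjusted p = 0.0698), or -3.33 without guard night replicate 1, where the gene passed. By day the same gene held 1048 to 2741 in guard cells and 589 to 1969 in subsidiary cells. Within guard cells it was 4.67 log2 higher by day than by night (adjusted p = 0.000146), and within subsidiary cells the value was 1.36 (adjusted p = 0.314); the test between these changes gave 3.31 ± 0.77 (SE, adjusted p = 0.344). Aquaporin Zm00001d051174 held 15.2 to 59.0 and 63.3 to 205 (-1.72, adjusted p = 0.533), also without overlap. For Aquaporin Zm00001d028951 the ranges of 71.3 to 137 and 94.4 to 480 did overlap (-1.15).

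No gene of 10 anion channel genes or of 59 calcium signalling genes passed, and their medians were -0.12 and -0.28. Proton pumps energise ion uptake. A list of 53 genes was matched to them by first word alone, and words such as Plasma do not name a pump. Of these 53 genes 0 passed, 14 positive and 39 negative, with a median of -0.44 by night and 0.23 by day. Together they took 0.0839 to 0.127% of guard reads and 0.126 to 0.196% of subsidiary reads. Plasma Zm00001d050214 ran the other way, at 1038, 1003, 660 and 426 in guard cells and 299, 340, 285 and 190 in subsidiary cells (1.43, limma adjusted p = 0.194). Plasma Zm00001d002690 held 178 to 1698 and 2369 to 4210 (-2.03, adjusted p = 0.204).

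Sugar carriers move sucrose and hexoses between leaf cells. The 30 sugar transporter genes took 0.033 to 0.122% of the reads in guard libraries and 0.188 to 0.199% in subsidiary libraries, which do not overlap. Without Bidirectional Zm00001d038226 the other 29 genes took 0.0312 to 0.106% and 0.0615 to 0.103%, which overlap. Bidirectional Zm00001d038226, whose word opens the name of bidirectional sugar transporters, held 2150, 5135, 3578 and 299 normalised counts in guard cells and 20661, 16545, 20298 and 26640 in subsidiary cells. The means differed 7.54-fold, and the log2 difference was -3.48 ± 0.65 (SE, limma adjusted p = 0.059); it passed with guard night replicate 2 or 4 left out, or subsidiary day replicate 1. A second gene of this word, Bidirectional Zm00001d044421, was on the other side, at 268 to 724 in guard cells and 91.4 to 231 in subsidiary cells (1.63, adjusted p = 0.206). The median over the list was -0.24, and 0.05 without guard night replicate 4.

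No starch or trehalose gene passed. Trehalose phosphates signal sugar status, and the 15 trehalose genes took 0.0246 to 0.0359% of guard reads and 0.0134 to 0.0164% of subsidiary reads. Of these genes 11 were positive and 4 negative, with a median of 0.67 (0.36 without guard night replicate 4) and a lowest adjusted p of 0.456. Trehalose Zm00001d006913 held 57.9, 52.3, 41.5 and 66.9 normalised counts in guard cells and 7.85 to 18.7 in subsidiary cells (1.85). Of 38 starch turnover genes 0 passed, with a median of 0.14. Ae1 Zm00001d053331, a maize starch branching enzyme, held 0, 200, 55.7 and 9.44 in guard cells and 390, 244, 208 and 343 in subsidiary cells (-3.96, limma adjusted p = 0.172).

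No gene of the cuticle or the wall passed. Of 148 cell wall genes 0 passed and 9 (6.08%, beside 5.81% over all genes) had non-overlapping groups, with a median of -0.03. Wax genes, which build the cuticle of the epidermis, took 0.0271 to 0.0706% of guard reads and 0.0701 to 0.0881% of subsidiary reads. Of these 31 genes 0 passed and 4 (12.9%) had non-overlapping groups, 2 higher and 2 lower in guard cells, with a median of -0.13. For 3-ketoacyl-CoA Zm00001d027904, from the class that elongates fatty acids, guard libraries held 1304, 617, 174 and 90.9 and subsidiary libraries 1789, 2515, 3424 and 2146 (-2.83, limma adjusted p = 0.161). Non-specific Zm00001d044685, listed under lipid transfer by its first word alone, held 256 to 3240 and 2518 to 8689 (-3.15, adjusted p = 0.102). That word does not itself name a function. CASP-like Zm00001d015463, of a class of membrane proteins related to those of root barriers, held 249, 295, 128 and 71.2 in guard cells and 2715, 1922, 2341 and 2855 in subsidiary cells. These groups stood far apart, at -3.91 ± 0.90 (SE, adjusted p = 0.11). The fit of the 8 night libraries alone called this gene (adjusted p = 0.0352). In the subsidiary day group it ran from 69.1 to 5241.

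Among transcription factors 0 members passed in limma. MYB proteins bind DNA and several control guard cell and epidermal traits in plants. MYB Zm00001d053124 held 2238, 961, 1295 and 632 normalised counts in guard cells and 133, 176, 158 and 284 in subsidiary cells. All guard libraries were above all subsidiary ones (2.67 ± 0.58 SE, adjusted p = 0.0974), and the day difference was 5.08 (adjusted p = 0.000578). Within guard cells it was 2.96 log2 higher by day than by night (adjusted p = 0.0144). BZIP Zm00001d037360 held 498, 200, 260 and 249 against 21.8, 14.9, 22.7 and 39.0 (3.56, adjusted p = 0.0862). Opposite to these were Polycomb Zm00001d024698, a chromatin repressor class, and Yabby15 Zm00001d017391, of a family that patterns leaves. Polycomb Zm00001d024698 held 531, 885, 818 and 355 in guard cells and 2256, 2571, 1966 and 2115 in subsidiary cells (-1.86 ± 0.35 SE, adjusted p = 0.059), with -1.85 by day. Yabby15 Zm00001d017391 held 24.4 to 52.3 and 204 to 373 (-2.88, adjusted p = 0.11). TCP Zm00001d017350, of a class that regulates growth, was low in both, at 36.9 to 67.4 in guard cells and 0 to 7 in subsidiary cells (4.08, adjusted p = 0.127).

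Factors of light and photoperiod showed a similar picture. Of 19 clock and photoperiod genes 0 passed, and the median was -0.10 by night and 0.44 by day. C2C2-CO-like Zm00001d051684, a CONSTANS-like factor, held 3040, 4466, 5093 and 1012 normalised counts in guard cells and 884, 662, 767 and 1170 in subsidiary cells. The groups overlap through guard replicate 4 alone; with it the log2 difference was 1.76 (limma adjusted p = 0.16), and without it 2.27 (adjusted p = 0.00906). CCT Zm00001d012441 held 560, 841, 921 and 341 in guard cells and 134, 61.5, 108 and 83.4 in subsidiary cells (2.73, adjusted p = 0.19). The 6 photoreceptor genes had a median of 0.06 and a lowest adjusted p of 0.698.

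Photosynthesis genes, which mark mesophyll and bundle sheath and are also expressed in guard cell chloroplasts, were close to even by night. The 49 photosystem genes had a median of 0.08 by night and 1.46 by day, and the 30 chlorophyll-binding genes -0.17 and 1.22. Guard night replicate 4 was lowest in both lists: its photosystem share was 0.0304% of the reads against 0.120 to 0.203% in the other guard libraries and 0.0775 to 0.110% in subsidiary libraries. Without it the photosystem median by night was 0.53. Ferredoxin Zm00001d045575, an electron carrier, held 1134, 552, 376 and 161 normalised counts in guard cells and 107, 61.5, 108 and 83.4 in subsidiary cells (2.32, limma adjusted p = 0.16). Photosystem Zm00001d018797 held 16.3 to 332 and 250 to 473 (-2.41, adjusted p = 0.194).

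Lists matched to other cell types by first word alone were detected in both groups. Words such as Carbonic and Malic do not name a cell type. The series holds no library of those cell types to set the shares against. The 9 mesophyll C4 genes took 0.0102 to 0.0242% of guard and 0.0153 to 0.0286% of subsidiary reads, and the 11 bundle sheath genes 0.0161 to 0.0255% and 0.0236 to 0.0366%. The 5 vascular genes took 0.00143 to 0.00912% and 0.000551 to 0.0027%, with the top value in guard night replicate 4. None of these members was at 0 in all night libraries, and 0 of them passed. Their part in the night differences was not tested.

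The medians of ribosomal and histone genes moved with guard night replicate 4. The 167 cytosolic ribosomal protein genes had a median of -0.62, with 42 positive and 125 negative, and -0.14 without that library. Histone genes had -0.30 and 0.03 over 90 members. No member of either list passed (lowest limma adjusted p 0.175 and 0.322). A list of 35 genes was matched to cyclins and E2F factors by first word alone, and words such as Cell name neither. It had a median of 0.10, and 0.05 without that library, and 0 passed. Cell Zm00001d013120, from that list, held 1866, 646, 1052 and 940 normalised counts in guard cells and 354, 229, 260 and 375 in subsidiary cells (1.81, adjusted p = 0.116), and -0.13 by day.

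**Figure D4:**
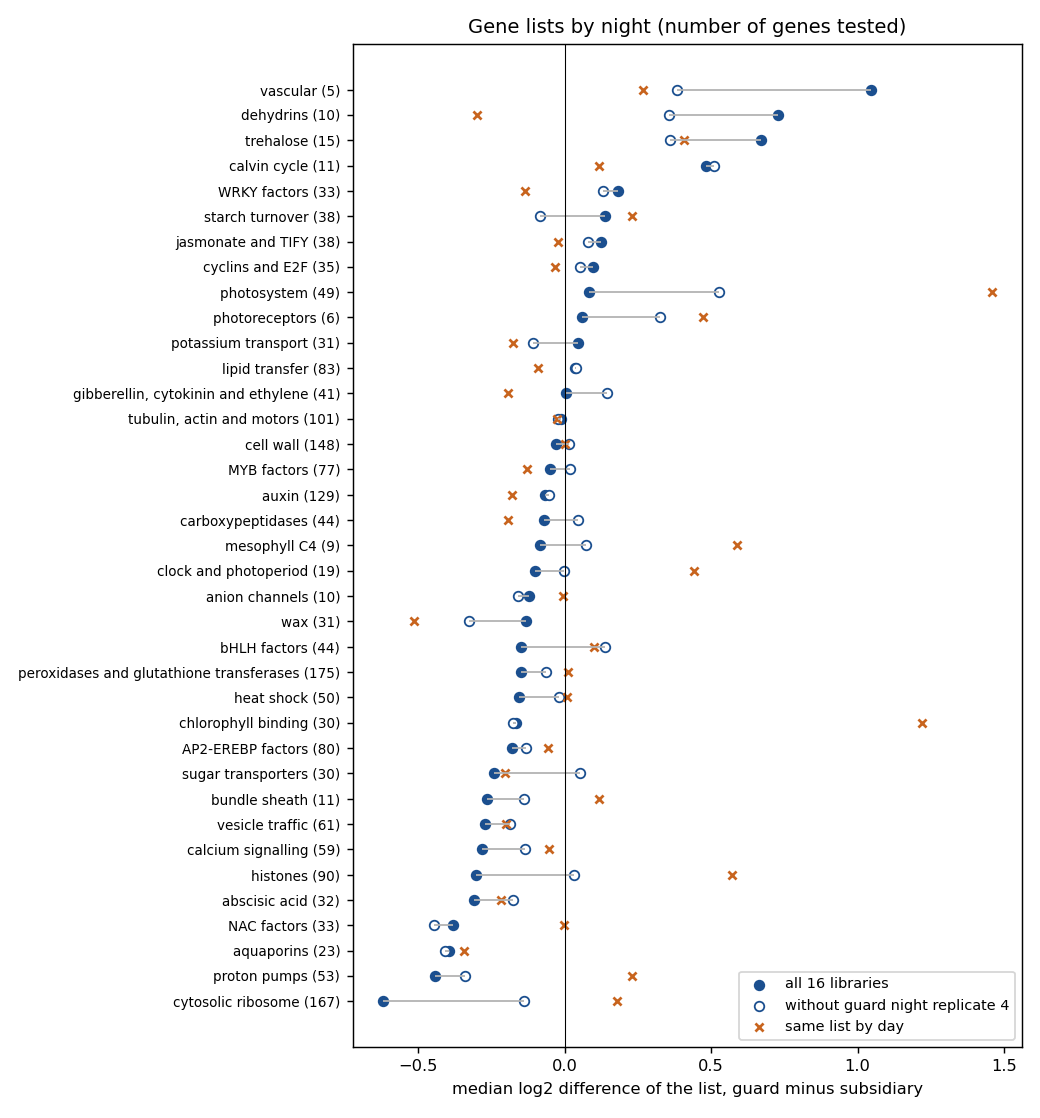
Median log2 difference, guard minus subsidiary cells, of each gene list by night in all 16 libraries (filled), without guard night replicate 4 (open) and by day (crosses); numbers in brackets are genes tested. Most medians lie within 0.5 of 0 by night, the cytosolic ribosomal list moves from -0.62 to -0.14 without that library, and the photosystem and chlorophyll-binding lists are far higher by day.

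Further described genes with non-overlapping groups belong to several classes, and none passed in limma. On the guard side were Ubiquitinyl Zm00001d006079, from enzymes that remove ubiquitin, with 3751, 3631, 3622 and 1643 normalised counts against 996 to 1202 (1.43, adjusted p = 0.0993), and Peptidylprolyl Zm00001d050931, from protein folding enzymes, with 142 to 371 against 33.1 to 57.1 (2.49, adjusted p = 0.11). Nucleotide Zm00001d004782 held 614 to 2184 against a narrow 364 to 397 (1.54, adjusted p = 0.127). On the subsidiary side were Glycine-rich Zm00001d045875, with 164 to 658 in guard cells and 1502 to 2164 in subsidiary cells (-2.59, adjusted p = 0.102), and Dihydroflavonol-4-reductase Zm00001d009666, of anthocyanin synthesis, with 183 to 588 and 780 to 1416 (-1.79, adjusted p = 0.0974). AT-rich Zm00001d053396, of a DNA-binding class, held 37.4 to 430 and 733 to 1140 by night (-2.79, adjusted p = 0.0808), and its day difference was -0.07. MFP1 Zm00001d048123 was at 0, 15.6, 0 and 0 in guard cells and at 36.6, 25.5, 92.4 and 122 in subsidiary cells (-4.85, adjusted p = 0.102), while its day difference was 1.24.

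A carboxypeptidase gene with a larger gap than the called one missed the threshold. Carboxypeptidase Zm00001d015872 held 1864, 3409, 1532 and 72.1 normalised counts in guard cells and 42.0, 80.9, 38.4 and 27.4 in subsidiary cells. Guard replicate 4 lay within the subsidiary range; the log2 difference was 4.37 ± 0.90 (SE, limma adjusted p = 0.0862), and 5.58 without that library (adjusted p = 0.00121). Carboxypeptidase Zm00001d025195 lay on the other side, at 329 to 1670 and 1756 to 4731 (-2.14, adjusted p = 0.128). Of the 44 carboxypeptidase genes 2 were apart as higher and 3 as lower in guard cells (11.4%, beside 5.81% over all genes), and the list's median was -0.07.

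**Figure D5:**
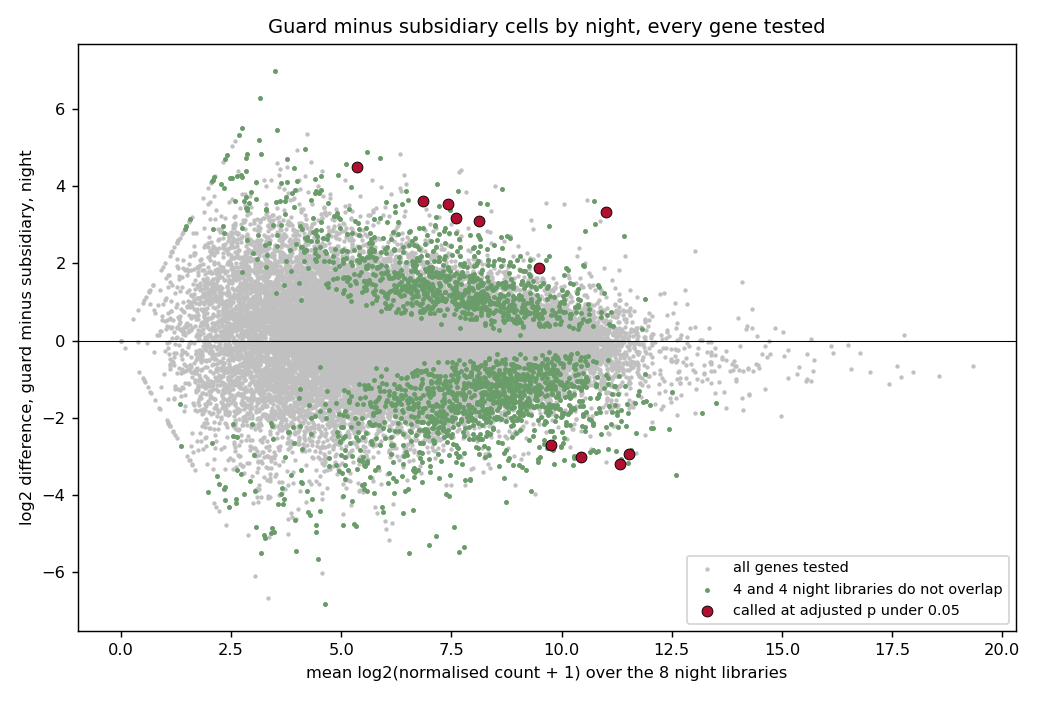
Log2 difference by night against the mean log2(normalised count + 1) over the 8 night libraries, for each of the 37759 genes tested; green points have non-overlapping groups and red points are called. The 11 called genes have differences between -3.20 and 4.50, and many genes of lower level with larger differences were not called.

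The authors' deposited table, made with DESeq2, lists many more genes as different by night. At an adjusted p under 0.05 the authors' deposited table has 607 of 36946 genes with a value (1.64%), 332 higher (0.899%) and 275 lower (0.744%) in guard cells, and 61 and 68 of them are described. All 11 limma calls are among them. The 4 and 4 libraries did not overlap for 199 of the 332 and 221 of the 275, beside 2.53% and 3.27% over all genes tested here. Those genes were picked on the same night values, so this is no test. By day 140 and 73 were also called in that table, whose share of all genes called by day is not given here. DESeq2 on the recovered reads of 15 libraries called 585 genes (1.61%), and edgeR on the same reads called 0 (0%; 3427 or 9.08% at an unadjusted p under 0.05). Carboxypeptidase Zm00001d015872 has -4.97 (subsidiary over guard, adjusted p = 1.33e-08) in the authors' deposited table, and Potassium Zm00001d003861 has -2.78 (adjusted p = 3.29e-05). Aquaporin Zm00001d005421 has 2.04 (adjusted p = 0.00627) in the authors' deposited table, and Bidirectional Zm00001d038226 has 2.65 (adjusted p = 0.000633).

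Some of the genes with the smallest deposited p rested on few libraries. ATP Zm00001d006403 was at 0 in all 4 guard libraries by night and at 1283, 0, 559 and 152 in subsidiary cells. The authors' deposited table gives it an adjusted p of 1.75e-05 with a log2 fold change of 0.02. DESeq2 on the recovered reads gave -26.3, guard over subsidiary, for this gene. Deposited fold changes thus need not be on the same scale as those fitted here. 40S Zm00001d053633 was at 0, 1021, 0 and 379 in guard cells and at 0 in all subsidiary libraries, with 0.000115 and -0.02 in the authors' deposited table. ARF-related Zm00001d029408 held 112 to 454 in guard cells and 4197, 94.1, 443 and 7939 in subsidiary cells, where the authors' deposited table has 3.34 (adjusted p = 0.00187). None of the 3 passed in limma (adjusted p 0.404, 0.547 and 0.463).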

How the data were processed

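Gene expression was measured by RNA sequencing of laser-cut cells, from about 10 pg of RNA per reaction, with SMART-Seq v4 amplification and Nextera XT libraries of 150 ng cDNA (per the labels' protocols). The authors deposited normalized counts, a signal per gene: the values show read counts scaled by 1 factor for each library, and the file headers call them normalized. In every library 100% were whole multiples of 1 step within 0.01. Guard day replicate 1, whose step is close to 1, was left out of the tests on recovered reads, which used 15 libraries. The deposited log2 fold change (a score, subsidiary over guard) and adjusted p-value come from the authors' DESeq2 1.40.2 with B73 RefGen v4, as the submitters' processing notes state. Which aligner and counter were used is not given in the sources used here. Strand is not kept and there are no molecular identifiers, so overlapping genes and close gene copies may share reads.

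Of 38179 lines, 62 shifted by a comma were moved back. The test covered 37759 genes reaching 10 in 4 or more libraries (420 did not) and used limma-trend 3.58.1 in R 4.3.3 on log2(value + 1), with 4 group means over 16 libraries (12 residual df) and adjustment by Benjamini-Hochberg; fold changes are on that scale and understate the change of low genes. edgeR 4.0.16 and DESeq2 1.42.0 served as alternatives. Library measures were compared by 2-sided exact permutation tests. On simulated counts of 37922 genes the night test recovered 12% of genes changed by a log2 of 2 and 53% of those changed by 3, with 4 false calls. The simulation gave all genes and groups the same dispersion and changed only genes of higher mean. It held no outlying library, so its rates may differ from those in these data.

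The members and lists were chosen with earlier results of these data known, and the 38 lists were matched to first words after those words had been seen; 37 had a tested member. Named genes are every called gene, up to 12 described genes per direction of smallest p with a mean log2 of at least 3 and groups that do not overlap, up to 3 members per list of smallest p, and up to 10 described genes per direction of smallest p in the authors' deposited table; the rule picked 144, and the text prints those the account turns on, chosen after their values were seen. Zm00001d038907 is outside this rule. The replicates are separate collections, and p-values measure their spread together with preparation and amplification. No sequence is printed, because the reference table at hand uses another assembly and holds none of these identifiers.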

Additional observations from a re-analysis of the deposited data

Results flagged for a closer look

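In 98 groups of 4 values checked, 5 had 1 library far from the other 3 by Dixon's criterion. Chance alone flags about 1 in 20 of independent groups. These groups share their libraries, so that rate cannot tell whether the flags arose by chance. In guard cells by night, replicate 4 held 1643 normalised counts of Ubiquitinyl Zm00001d006079, where the other 3 lay at 3622 to 3751. The same library held 245 of Zm00001d030331, where the others lay at 711 to 857. It also gave the vascular list 0.00912% of its reads, where the others gave 0.00143 to 0.00213%. Within that list Phloem-specific Zm00001d024621 held 1150 normalised counts in this library and 36.7 to 198 in the other guard night libraries. Guard night replicate 2 held 15.6 normalised counts of MFP1 Zm00001d048123, where the others were at 0, so that any value above 0 would be flagged. Subsidiary night replicate 4 held 28.9 M recovered reads, where the others held 22.0 to 22.8 M.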

How the results depend on the processing

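The 11 genes called by night became 585 in DESeq2, 170 without guard night replicate 4 and subsidiary day replicate 1, the pair of lowest correlation, 185 with array quality weights, 35 with upper-quartile scaling, 28 with a pseudocount of 10, 24 with a mean of at least 100, 4 in the 8 night libraries alone and 0 in edgeR, where 3427 stood at an unadjusted p under 0.05. The split of 7 higher and 4 lower became 142 and 28 without that pair, 13 and 15 with a pseudocount of 10, and 1 and 3 in the night libraries alone. TMM scaling and no filter gave 11. With 1 library left out the count ran from 0 to 114. The 0 genes called in the change of the difference between day and night became 201 in DESeq2 and 4 with a pseudocount of 10 (PVR3-like Zm00001d005146, Zm00001d018076, Zm00001d004591 and Zm00001d038907, chosen after their values were seen), and ran from 0 to 6 with 1 library left out. The causes were not tested. No library measure passed, and 1 measure alone could not have passed. The smallest p of the exact permutation test is 0.0286 before adjustment over 16 measures.

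With a replicate block the night count was 10 (4 higher and 6 lower, 7 of them among the 11), and the calls of PRA1 Zm00001d015125 (adjusted p = 0.0673), Carboxypeptidase Zm00001d047235 (0.0749), Zm00001d051158 (0.0749) and Zm00001d024568 (0.058) were lost. The labels do not tie a number to 1 collection. For same-numbered guard and subsidiary libraries a Pearson r was -0.04 to 0.05 by night. It is not one of expression levels, for which each night library had a mean Spearman rho of 0.650 to 0.778 with the other 7. Whether same-numbered guard and subsidiary libraries share a collection cannot be told from these values. Over 144 named genes and these settings, 3587 of 3867 values kept their side of the threshold, 136 lost it, 144 gained it and 0 changed sign past it. Of 999 list medians 961 kept their value within the spread and 38 moved. In simulated counts with the same dispersion in all genes and groups, the night test recovered 12% of genes changed by 2 log2 units. Differences of that size can thus be missed, though the rate in these data may differ. The effect of depth was not tested.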
